A study of Mus musculus with 31 samples.

Results

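BXD38 is 1 of 31 BXD recombinant inbred mouse strains whose RNA was hybridized against C57BL/6J, and its single array was set against the arrays of the other 30 strains. It was selected on its measured values, because in earlier results of the same data it stood alone among the arrays and had low ratios of proximal tubule genes. The values that chose it are therefore described here with no test. The parents of the panel were C57BL/6J and DBA/2J, and repeated inbreeding left each line homozygous for either parental allele at every locus. The labels state that RNA of 3 male mice aged 8 weeks was pooled for each strain, labelled with Alexa Fluor 647 and hybridized with C57BL/6J RNA of the same sex and age, labelled with Alexa Fluor 555 and carrying spike-in transcripts. The dyes were not swapped, and no strain had a second array, so the effect of the strain BXD38 and that of its array cannot be told apart. The titles name kidney and the source and tissue fields name whole brain. Every value is a ratio of the same tissue in a strain and in the reference, so it carries no level by which the markers of a tissue could be called present or absent. The other 30 arrays comprise 24 of BXD1-32 and 6 of BXD33-42 (BXD33, BXD34, BXD36, BXD39, BXD40 and BXD42), a division by strain number that is background knowledge and not in the labels.

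The proximal tubule is the first stretch of the nephron behind the glomerulus, where most of the filtered glucose, amino acids, phosphate and bicarbonate is taken back and where organic anions and cations are secreted. Its cells burn fatty acids in densely packed mitochondria, and in male mice many of its genes respond to androgens. The collecting duct lies at the far end of the nephron, where principal cells take up water and sodium and intercalated cells move acid and base. In bulk tissue, fewer cells of a type and less RNA per cell give the same ratio and cannot be told apart.

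BXD38 stood at an end of the 31 arrays for many probes. Its log2 ratio, likely of strain over reference, was the lowest of the 31 at 1706 of 23040 probes (7.4%) and the highest at 1719 (7.46%). If the deposited ratio is of reference over strain instead, every sign and every low or high below turns, while sizes and the membership of the lists outside the range stay as given. Together these were 14.9% of probes, while the other arrays were outermost at 3.36% (BXD40) to 16.5% (BXD15), with a median of 5.42%. Only BXD15 exceeded BXD38 in this count. BXD38 lay at least 1 below the median of the other 30 arrays at 1263 probes (5.48%) and at least 1 above it at 1060 (4.6%). The correlation of BXD38 with single other arrays across all probes ran from -0.09 (BXD21) to 0.49 (BXD42), with a median of 0.16, and BXD23 and BXD36 came next to BXD42 at 0.49 and 0.45. Its correlation with the per-probe median of the other 30 was 0.22, below the range of 0.29 (BXD15) to 0.73 (BXD40) that the others had with the median of their own other 30. At the 205 probes where the other arrays had a median of -1 or lower, BXD38 had a median log2 ratio of 0.18, while the median of each other array at such probes lay between -1.64 and -0.10. In BXD38 these probes were therefore near 0 as a group, and 93 of the 205 had numbers that are multiples of 8.

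**Figure D1:**
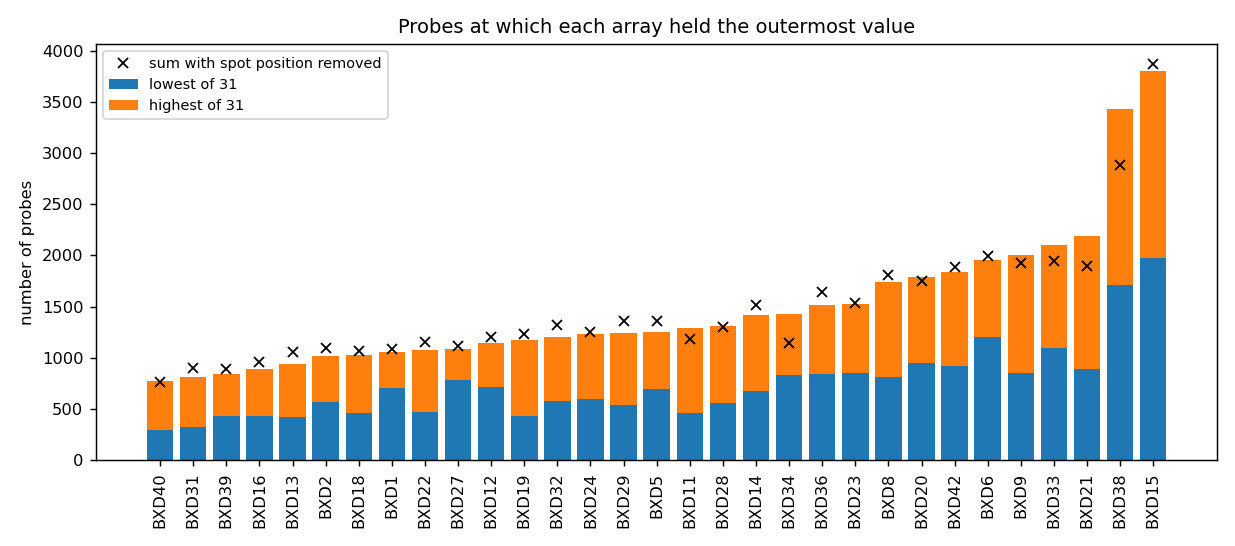
Number of the 23040 probes (vertical axis) at which each of the 31 arrays (horizontal axis) held the lowest value (blue) or the highest (orange), and, as crosses, the sum after removal of spot position. BXD38 held 1706 lowest and 1719 highest values, and its sum fell to 2884 with position removed, still the next after BXD15.

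These counts moved with the number of a probe. Spot position below means the place of the number in a repeat, read from the values and not from a layout of the array. Among the 2880 probes whose number is a multiple of 8, BXD38 was above all other arrays at 830 (28.8%) and below them at 30 (1.04%), and its mean difference from the median of the others was 0.56. At the remaining 20160 probes it was above at 4.41% and below at 8.31%, with a mean difference of -0.10. The mean log2 ratio of these 2880 probes was 0.42 in BXD38 and -0.57 (BXD11) to 0.25 (BXD34) in the others, so BXD38 lay outside their range. The part of this shift in the results on single genes was not tested, and the main counts are given a second time after the mean of the 48 probes at the same place in a repeat of 480 probe numbers had been subtracted in each array. With position removed, BXD38 was below the range at 6.34% and above it at 6.18% of probes, and the 2880 probes showed 5.42% below and 5.69% above. The position in the repeat held 25.0% of the variance of the difference in BXD38, against 6.17% to 25.5% in the other arrays. Gapdh, spotted 232 times and almost always at such a place, had a mean difference of 0.05 in BXD38, with 2 spots below and 12 above the range.

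**Figure D2:**
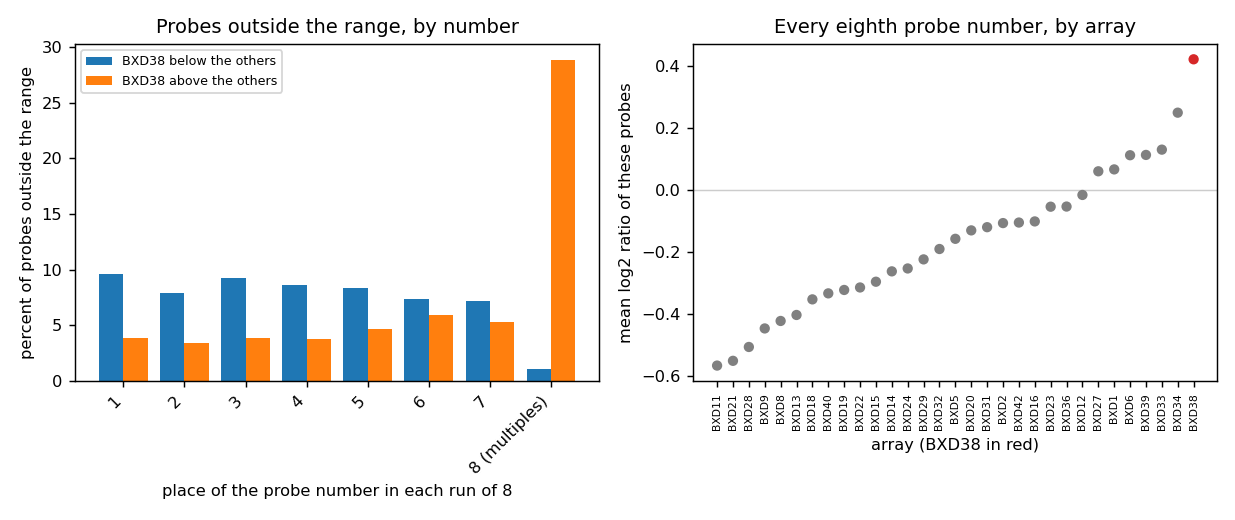
Left, percent of probes (vertical axis) at which BXD38 was below (blue) or above (orange) the other 30 arrays, by the place of the probe number in runs of 8 (horizontal axis). Right, mean log2 ratio of the 2880 probes whose number is a multiple of 8 in each array, with BXD38 in red at 0.42, the highest of the 31.

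For gene groups, the probes of a gene were averaged, which gave 15096 genes. BXD38 was below the range of the other 30 arrays at 1204 genes (7.98%) and above it at 1065 (7.05%), and with position removed at 983 (6.51%) and 951 (6.3%). Both conditions held for 822 genes below (5.45%) and 549 above (3.64%). The median difference over all genes was -0.03 as deposited and 0.02 with position removed. Against the 6 other arrays of BXD33-42 alone, 2953 genes lay below their range (19.6%) and 2463 above it (16.3%). These shares are the background for the lists that follow. The rule that chose BXD38 used the same values, so the counts are descriptions.

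All 4 genes that marked the proximal tubule in BXD38 lay below the other 30 arrays. Cyp4b1, a cytochrome P450 that oxidizes fatty acids and foreign compounds and responds to androgens in mouse kidney, had a log2 ratio of -2.88 in BXD38. In the other arrays it ran from -2.02 (BXD23) over a median of 0.61 to 3.32 (BXD2), so BXD38 differed from the median by -3.49. Of the other 30 arrays 24 had a ratio above 0, so BXD38 lay on the opposite side of the reference from most of the panel. Slc22a6, the organic anion transporter of the basolateral membrane, stood at -1.17 in BXD38 and between -0.35 (BXD36) and 0.84 (BXD28) in the others, with a median of 0.19. The difference was -1.36, and the gap to the nearest array was wide beside the narrow range of the others. Slc5a2, the sodium-glucose cotransporter that takes up most filtered glucose, stood at -2.43 in BXD38 and between -2.17 (BXD34) and 2.63 (BXD20) in the others, with a median of -0.55. BXD38 was 1.88 below the median but close to BXD34, and the 6 other arrays of BXD33-42 were themselves all below 0, between -2.17 and -0.29. Tmem176a, which encodes a membrane protein, had probes at 2 places on the array. The first read -1.50 in BXD38 and -0.91 to 2.44 in the others (median 0.63), and the second read -1.37 in BXD38 and 0.16 to 3.39 in the others (median 0.87). Both probes thus put BXD38 below all other arrays, and their mean differed by -2.29. With spot position removed, the differences were -3.74 for Cyp4b1, -1.04 for Slc22a6, -1.71 for Slc5a2 and -2.10 for Tmem176a, and BXD38 was below the range for each. Cyp4b1 was the only one of the 4 at a probe number that is a multiple of 8, where BXD38 was otherwise mostly high.

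**Figure D3:**
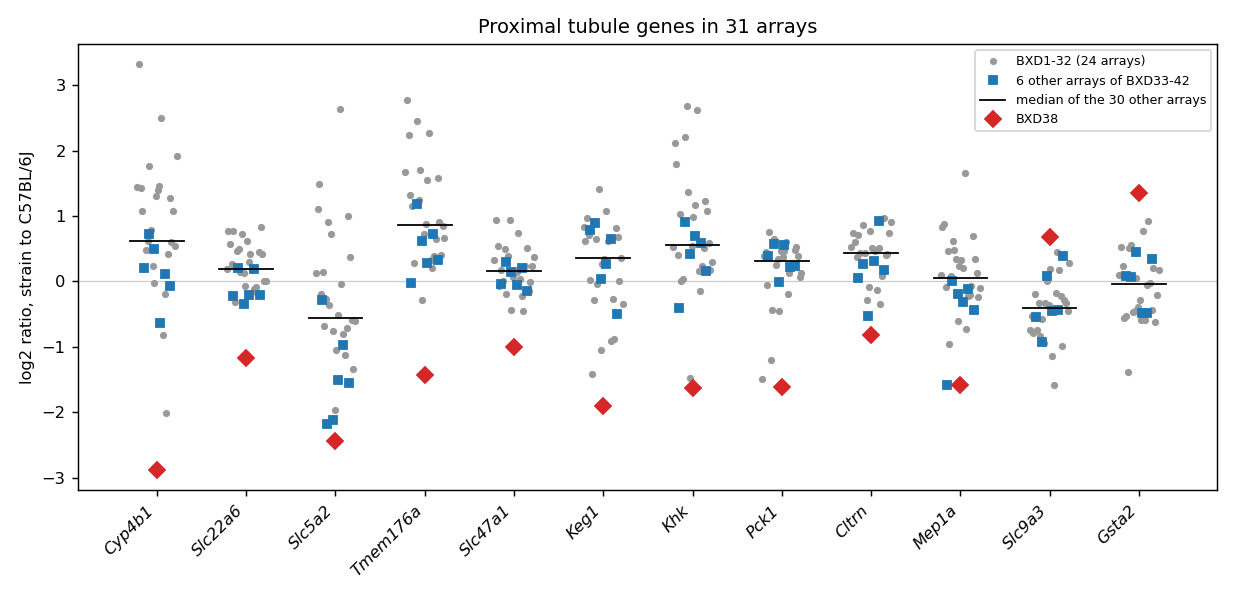
Log2 ratio of strain to C57BL/6J (vertical axis) of 12 proximal tubule genes (horizontal axis) in the 31 arrays: BXD38 as red diamonds, the 6 other arrays of BXD33-42 as blue squares, the 24 of BXD1-32 as grey points, and the median of the 30 as a bar. BXD38 lay below all other arrays for the first 10 genes, by a hair for Mep1a (-1.59 against -1.58), and above them for Slc9a3 and Gsta2.

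HNF1 and HNF4 are, as background, transcription factors that bind the promoters of many proximal tubule genes. The upstream sequence of the low genes is shown as a feature that the choice of the genes did not use. Of the 13 low genes, 11 had a window of 250 bases upstream of a start site in RefSeq (GRCm38.p6). The core of the HNF1 motif was searched as GTTAAT on both strands (ATTAAC on the other strand), and an HNF4 site as CAAAGTCCA on both strands. Some genes had several start sites, so that the 11 genes had 17 windows, part of which overlap (among those of Tmem176a and Tmem176b, and among those of Dao). The HNF1 core was in 4 of the 17 windows, each of a different gene, and the HNF4 site in none. Of all 32851 windows of this length, 6.43% held the HNF1 core and 0.384% the HNF4 site. The match is a description of letters only. Proximal tubule genes that were not low were not searched, so the share cannot be called particular to the low genes. The windows are given below from 5′ to 3′ on the strand of the gene, ending at the base before the start site, with matches in capitals. They are Slc22a6 on the plus strand at chr19:8617746-8617995, Khk on the plus strand at chr5:30921309-30921558, Cltrn on the plus strand at chrX:164089937-164090186 and Pck1 on the plus strand at chr2:173152823-173153072. Cyp4b1, on the minus strand at chr4:115647722-115647971, is added as the marker with the largest difference, and its window held no match.
Slc22a6: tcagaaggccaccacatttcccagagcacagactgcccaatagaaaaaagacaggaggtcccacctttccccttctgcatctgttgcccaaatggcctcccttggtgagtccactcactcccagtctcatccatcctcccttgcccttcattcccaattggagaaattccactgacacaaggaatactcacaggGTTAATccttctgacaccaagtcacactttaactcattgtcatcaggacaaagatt
Khk: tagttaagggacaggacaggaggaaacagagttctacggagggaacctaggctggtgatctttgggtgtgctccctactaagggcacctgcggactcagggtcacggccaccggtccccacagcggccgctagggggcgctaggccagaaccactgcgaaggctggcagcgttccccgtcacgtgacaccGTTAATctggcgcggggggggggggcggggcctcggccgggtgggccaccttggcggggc
Cltrn: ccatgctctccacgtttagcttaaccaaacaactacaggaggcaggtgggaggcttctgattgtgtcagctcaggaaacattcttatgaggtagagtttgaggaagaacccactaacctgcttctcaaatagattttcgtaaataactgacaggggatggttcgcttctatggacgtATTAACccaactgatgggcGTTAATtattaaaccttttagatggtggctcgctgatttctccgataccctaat
Pck1: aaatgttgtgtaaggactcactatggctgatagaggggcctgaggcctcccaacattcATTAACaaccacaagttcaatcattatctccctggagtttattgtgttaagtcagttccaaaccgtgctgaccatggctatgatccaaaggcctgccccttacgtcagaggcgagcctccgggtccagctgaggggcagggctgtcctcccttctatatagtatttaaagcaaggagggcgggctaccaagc
Cyp4b1: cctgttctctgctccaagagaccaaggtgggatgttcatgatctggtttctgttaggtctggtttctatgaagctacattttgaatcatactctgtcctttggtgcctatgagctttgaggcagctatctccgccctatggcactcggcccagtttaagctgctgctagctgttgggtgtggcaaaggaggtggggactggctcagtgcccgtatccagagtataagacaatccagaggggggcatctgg

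The first base of the HNF1 core lay 56 bases before the start site in Slc22a6, 60 in Khk and 192 in Pck1. Cltrn held it at 73 and 54 bases before its start site, once on each strand. Tmem176a, Keg1, Mep1a, Cyp2j5, Tmem176b and Dao had windows with neither motif.

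The whole proximal tubule list of 83 genes had 69 on the array. BXD38 was below the range at 13 of them (18.8%) and above it at 3 (4.35%), beside 7.98% and 7.05% of all genes, and 49 of the 69 were below the median of the others. The median difference was -0.27, against -0.03 over all genes, and with position removed -0.26 against 0.02. Of the 13 low genes, 8 remained below the range with position removed, and of the 3 high genes 2 remained above. Of all genes, 5.45% were below in both conditions and 3.64% above. The list holds all 4 markers, which are among the 13 and among the 8. Its counts and direction are therefore not independent of the markers. Against the 6 other arrays of BXD33-42, 33 of the 69 were below their range and 5 above it. The mean log2 ratio over the list was -0.23 in BXD38, next to BXD15 at -0.26, while the others had a median of 0.30 and reached 0.79 in BXD2. The list was thus low in BXD38 and in BXD15, the other array that stood apart, and with position removed its mean was the lowest of the 31 in BXD38.

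The part of the list drawn up for metabolism and brush border enzymes held 10 of the 13 low genes. Of its 35 genes, 10 were below the range and 1 above, the median difference was -0.56, and their mean of -0.44 was below that of every other array. Of the 35, 5 were below the range both as deposited and with position removed, beside 5.45% of all genes. The low genes include the markers Cyp4b1 and Tmem176a. Not all of them encode enzymes, since Tmem176a encodes a membrane protein and Cltrn a partner of transporters. Khk, the ketohexokinase that starts fructose breakdown, read -1.62 in BXD38 and -1.47 (BXD15) to 2.68 (BXD13) in the others, with a median of 0.56. Its difference of -2.19 was large, but BXD15 came within a small distance of BXD38. Keg1, an acyltransferase of the glycine conjugation family, read -1.90 in BXD38 and -1.41 (BXD9) to 1.42 (BXD14) in the others, with a median of 0.35. Pck1, the cytosolic enzyme that commits carbon to gluconeogenesis, read -1.62 in BXD38 and -1.50 (BXD1) to 0.75 (BXD8) in the others, with a median of 0.31. Cltrn, or collectrin, a partner of amino acid transporters in the brush border, read -0.82 against -0.53 (BXD36) to 0.97 (BXD27), with a median of 0.44. Keg1 and Cltrn stayed below the range with position removed, at differences of -2.02 and -0.96, while Pck1 then lay inside it at -1.76. The brush border protease subunit Mep1a differed by -1.64, the epoxygenase Cyp2j5 by -0.79, Tmem176b by -0.76 and the D-amino acid oxidase Dao by -0.60. These 4 were below the range as deposited and inside it with position removed.

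Large differences also occurred inside the range. Acsm3, a medium-chain acyl-CoA synthetase of mitochondria, differed by -2.53, but its ratio of -2.46 was just above the lowest of the others, -2.54. Cndp2, a dipeptidase, differed by -1.997 and had a ratio of -1.81, with the others reaching down to -2.84. The genes nearest the edge of the range were Mep1b, at 0.43 beside a highest other value of 0.44, and Slc13a1, at -0.06 beside a lowest of -0.10, both inside. On the other side of the edge were Mep1a, at -1.59 beside -1.58, and Slc17a1, at 0.40 beside 0.32. Only Gsta2, a glutathione transferase, was above the range among the enzymes. It read 1.36 in BXD38 and -1.39 (BXD9) to 0.92 (BXD23) in the others, with a median of -0.04, and its difference of 1.40 became 1.47 with position removed.

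Transporters for solutes moved less as a group. Of 18 genes for the uptake of solutes and water, 1 was below the range (Slc5a2) and 1 above (Slc9a3), and the median difference was -0.12. Slc9a3, the sodium-proton exchanger of the brush border, read 0.68 in BXD38 and -1.59 (BXD20) to 0.45 (BXD22) in the others, with a median of -0.40. Its difference of 1.08 was 0.96 with position removed, so the glucose carrier and the proton exchanger of the same membrane lay at opposite ends. The second glucose carrier Slc5a1 differed by 0.12 and the basolateral glucose exit Slc2a2 by -0.10, both inside the range. The phosphate carrier Slc34a1 differed by -0.26 and the bicarbonate carrier Slc4a4 by -0.73, again inside it. Among 12 transporters of organic ions, Slc22a6 and Slc47a1 were below and Slc17a1 above the range, with a median difference of -0.25. Slc47a1, the exporter of organic cations into the urine, read -1.003 in BXD38 and -0.46 (BXD23) to 0.94 (BXD14) in the others. Its difference was -1.16, and it stayed below the range with position removed. Slc22a8, the other major basolateral organic anion carrier, differed by -0.17 and the cation carrier Slc22a2 by 1.03, both inside the range. The 4 genes of endocytosis, which include the receptors Lrp2 and Cubn, were all inside the range, with differences of -0.52 for Lrp2 and -0.24 for Cubn. Hnf4a, which encodes the HNF4 factor itself, differed by 0.03.

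No collecting duct gene was below the range as deposited. Of 36 listed genes 26 were measured, of which 0 were below and 4 above (15.4%), beside 7.98% and 7.05% of all genes, and the median difference was 0.06. With position removed the median was 0.14, 1 gene (Fxyd4) was below and 2 (Nedd4l and Avpr2) above. Nedd4l, the ubiquitin ligase that removes the epithelial sodium channel from the membrane, read 1.31 in BXD38 and -2.11 (BXD19) to 0.78 (BXD36) in the others, with a median of -0.91. Its probe number is a multiple of 8, and its difference of 2.22 became 1.70 with position removed, still above the range. The proton pump subunit Atp6v0a4 differed by 0.69, carbonic anhydrase Car2 by 0.48 and the ammonia channel Rhcg by 0.43. These 3 intercalated cell genes were above the range as deposited and inside it with position removed. The nearest gene inside the range was the vasopressin receptor Avpr2, at 0.20 beside a highest other value of 0.22. Aqp2, the water channel that vasopressin controls, differed by 0.06, and the sodium channel subunits Scnn1a, Scnn1b and Scnn1g differed by -0.23, 0.06 and 0.79, all inside the range. By cell type, the 16 principal cell genes had a median difference of 0.01 and the 10 intercalated cell genes one of 0.25. The sign of the median over all 26 genes turned to -0.04 when the first principal component of the other arrays was removed, so the list had no settled direction.

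**Figure D4:**
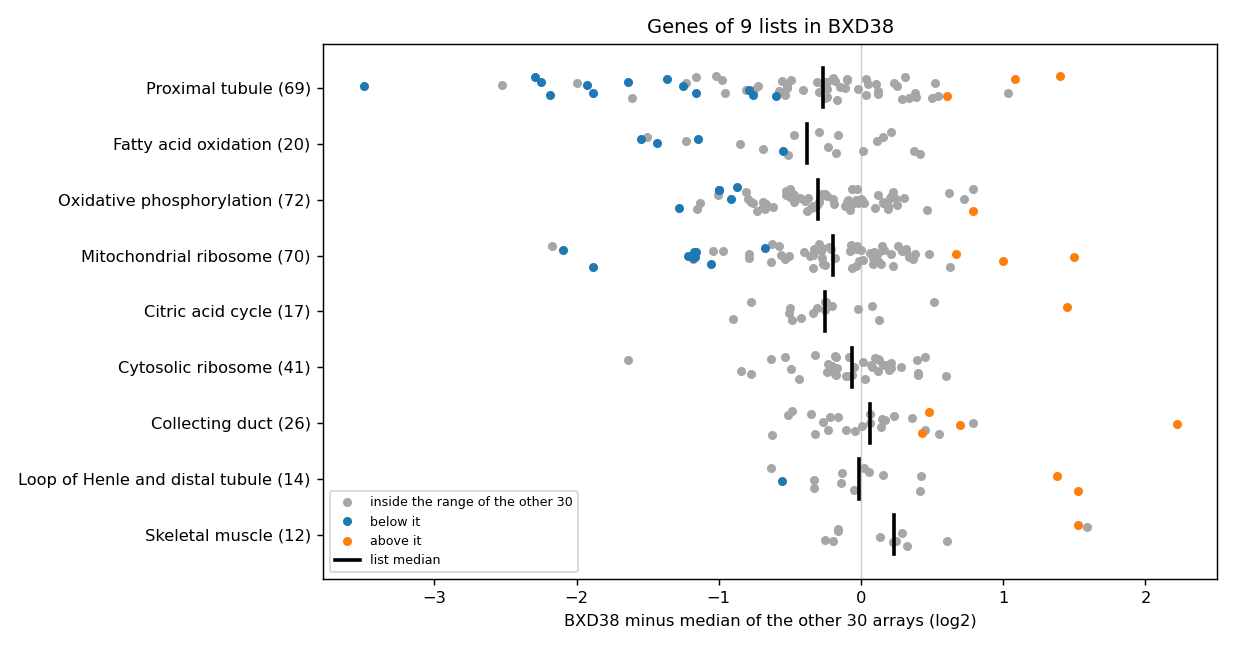
Difference of BXD38 from the median of the other 30 arrays in log2 (horizontal axis) for each measured gene of 9 lists (vertical axis, number of genes in brackets). Blue and orange points lay below and above the range of the other arrays, grey points inside it, and the black bar is the list median, which was -0.27 for the proximal tubule and 0.06 for the collecting duct.

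Genes of the respiratory chain were shifted down by a small amount. Of 79 listed genes of oxidative phosphorylation 72 were measured, and BXD38 was below the range at 5 (6.94%) and above it at 1 (1.39%), neither above the background of 7.98% and 7.05%. Of the 72 genes, 53 were below the median of the others, beside 7942 of all 15096 genes, and the median difference was -0.30 as deposited and -0.30 with position removed. It was -0.18 with the first principal component of the other arrays removed. The list mean was 0.12 in BXD38, inside the range of the others, which ran from -0.30 (BXD15) to 0.95 (BXD20) with a median of 0.39. Complex III, which passes electrons from ubiquinol to cytochrome c, had the lowest median of the 5 complexes, -0.60 over 10 genes with cytochrome c counted in, 9 of them negative. Its Rieske subunit Uqcrfs1 read -0.73 in BXD38 and -0.68 (BXD33) to 1.55 (BXD20) in the others, with a median of 0.55. The small subunit Uqcr11 read -0.41 in BXD38 and -0.03 (BXD9) to 1.28 (BXD12) in the others, with a median of 0.50. Cytochrome c itself, Cycs, read -0.49 beside a lowest of -0.48 in BXD15, and differed by -0.999. Uqcr11 and Cycs stayed below the range with position removed and Uqcrfs1 did not. In complex I, Ndufa7 differed by -0.9997 and Ndufv1, the subunit that binds NADH, by -0.87, both below the range. Ndufb10, at a probe number that is a multiple of 8, differed by 0.79 and was above it. Of these 3, only Ndufa7 held with position removed. The median difference was -0.23 over 32 genes of complex I, -0.49 over 4 of complex II, -0.37 over 11 of complex IV and -0.10 over 15 of complex V, and no gene of complexes II, IV and V was outside the range.

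Fatty acid oxidation was lower in BXD38 than in any other array as a list mean. Of 20 measured genes, 4 were below the range (20%) and 0 above, beside 7.98% and 7.05% of all genes. The median difference was -0.38, and the mean log2 ratio was -0.16 beside a lowest of -0.06 (BXD15) and a highest of 0.75 (BXD20) in the others. Ehhadh, the bifunctional enzyme of peroxisomes, read -1.08 in BXD38 and -0.55 (BXD9) to 1.36 (BXD28) in the others, with a median of 0.47. Etfb, which with Etfa forms the flavoprotein that takes electrons from the acyl-CoA dehydrogenases, read -0.47 in BXD38 and -0.17 (BXD21) to 2.41 (BXD20) in the others, with a median of 0.97. Etfa was also below the range, with a difference of -0.55, and so both subunits were low together. Ehhadh, Etfb and Etfa stayed below the range with position removed, while the short-chain dehydrogenase Acads, with a difference of -1.15, did not. Cpt1a, the gate for long-chain fatty acids into mitochondria, differed by -1.23 and stayed inside the range. Hadhb, a subunit of the trifunctional protein, differed by 0.41.

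Subunits of the mitochondrial ribosome were unequal. Of 70 measured genes, 9 were below the range (12.9%) and 3 above (4.29%), beside 7.98% and 7.05% of all genes. The median difference was -0.20 (-0.13 with position removed). Mrpl40 read -1.98 in BXD38 and -1.41 (BXD36) to 0.64 (BXD11) in the others, with a median of 0.11. Mrpl43 read -1.83 beside -1.46 (BXD29) to 0.63 (BXD28), with a median of 0.05, and its difference of -1.89 became -1.23 with the first principal component of the other arrays removed. Of the 9 low genes 8 stayed below the range with position removed, and of the 3 high genes none stayed above. Of all genes, 5.45% were below in both conditions and 3.64% above. In the citric acid cycle, 0 of 17 genes were below the range, and 1, Idh3a, was above it only as deposited. For comparison, 0 of 41 cytosolic ribosome genes were outside the range, with a median difference of -0.07. This list does not hold Rpl23, which had 1 probe above the range (2.88) and 1 inside it (0.01).

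Genes induced by androgens in mouse kidney had the lowest median of all 28 lists. The list was drawn up with earlier results of these data known and holds 3 of the 4 markers, so its direction is not independent of them. Of 12 measured genes, 4 were below the range (33.3%) and 0 above, beside 7.98% and 7.05% of all genes. The median difference was -1.19 (-0.95 with position removed). The list mean of -1.08 was the lowest of the 31 arrays, with BXD33 next at -0.68 and BXD2 highest at 1.55. Of the 12 genes, 9 were also in the proximal tubule list. The other 3 were Adh1, an alcohol dehydrogenase, with a difference of -1.82, Odc1, the enzyme that starts polyamine synthesis, with -1.15, and the glucuronidase Gusb with 0.20, all inside the range. The median difference of these 3 genes was -1.15 against all other arrays. Against only the 6 other arrays in the same division by strain number as BXD38, it was 0.06. For all 12 genes of the list, the median difference against those 6 was -0.92. Kap, the kidney androgen-regulated protein, read -0.94 in BXD38 and -1.67 to 3.11 in the others, so this gene did not set BXD38 apart.

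Markers of other cell types were mostly inside the range, as were most of all genes, of which 7.98% were below it and 7.05% above. The same held for the proximal tubule list, with 13 of 69 genes below and 3 above. None of the 9 podocyte genes was below the range and 1, Col4a3, was above, with a difference of 0.66. Of 13 endothelial genes, Pecam1 was below at -1.21 and Tie1 above at 0.71, and the median difference was -0.37, or -0.13 with position removed. Of 14 genes of the loop of Henle and distal tubule, 1 was below and 2 above. The probe of the potassium channel Kcnj1 has a number that is a multiple of 8, and its difference of 1.38 became 0.61 with position removed, still above the range. Umod, which encodes the main urinary protein made in the loop, differed by -0.63 inside the range. Of 22 genes of tubule injury and repair, 3 were below (Ccl2, Timp1 and Cd44) and 0 above, with a median difference of -0.06. Only Ccl2 was below with position removed, and Cd44 rested on 1 of its 2 probes. The liver gene Alb read -1.51 in BXD38 and -0.37 (BXD1) to 1.23 (BXD34) in the others. It was the only 1 of 12 liver genes outside the range. Of 11 adrenal genes only Chgb was outside, at -2.37, and its list median of -0.37 became 0.03 with position removed. The mean of the adrenal list was -0.263 in BXD38, the lowest of the 31 arrays (next BXD24 at -0.212), and it was the lowest with position removed too. Chgb, with a ratio of -2.50 in BXD38, weighs heavily in this mean of 11 genes, and the mean without it was not computed. The mean of 15 genes of stroma and smooth muscle, -0.353, was also the lowest, just under BXD36 at -0.351, but not with position removed. Skeletal muscle genes had a list mean of 0.10 in BXD38, above the -0.50 to -0.08 of all other arrays, although 1 of the 12, Pvalb, was above the range and only as deposited. Acta1, the actin of skeletal muscle, differed by 1.59 inside the range. Of 14 neuronal genes 1 was outside the range, Gad2 with 0.66 above it, and of 13 glial genes 1, Mobp with -1.04 below it. The part of other cell types in the low proximal tubule values was not tested.

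The single probes with the lowest differences, among those with 1 gene name, were led by Krt15. This keratin of basal epithelial cells read -3.61 in BXD38 and -2.15 (BXD23) to 3.94 (BXD13) in the others, with a median of 0.45. Gopc, a Golgi protein that steers membrane proteins to lysosomes, read -4.07 in BXD38 and -3.27 (BXD32) to 0.47 (BXD19) in the others, but its second probe differed by only -0.21 and was inside the range. Cdc42se1, which binds the small GTPase Cdc42, read -2.80 in BXD38, while none of the other 30 arrays was below -0.26 (BXD42) and their median was 0.53. This gap of BXD38 to its nearest array was wide beside those of Krt15 and Gopc. Slc27a2, a very long-chain acyl-CoA synthetase of proximal tubule and liver, read -2.74 and was closely followed by BXD36 at -2.58. The transcription factor Sox12 was below the range at both of its probes, with differences of -3.32 and -1.11, the first of which became -1.81 with the first principal component of the other arrays removed. The others of the 15 lowest were Cyp4b1, Lurap1l (-3.18), Myo10 (-3.08), Ska2 (-2.75), Dkk3 (-2.73), Ccdc17 (-2.72), Snupn (-2.66), Grin2d (-2.62), Igfbpl1 (-2.62, with its second probe at 0.05) and Klk1b16 (-2.60).

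All 15 were also below the range with position removed. That they lay below the 6 other arrays of BXD33-42 follows from their choice, since those 6 are among the 30. The next lowest array was BXD23 for 6 of the 15 and BXD42 for 4, the arrays that correlated best with BXD38. Of the 15 probes, 12 had numbers above 20160, in the last 2880 of the array, where BXD38 was below the range at 12.5% of probes, against 6.68% elsewhere. With position removed these shares were still 10.5% and 5.75%, so that step did not level this stretch with the rest. The second probe of Tmem176a, number 20907, also lies in it. Some of these probes lie close together. The probes of Krt15 and Myo10 are 4 numbers apart, with Chgb between them at -2.37, and over the other 30 arrays the ratios of Krt15 and Myo10 correlated at 0.77, against a median of 0.14 for any 2 probes with successive numbers. Chgb and Myo10, with successive numbers, correlated at 0.82 over the same arrays, and Chgb with Krt15 at 0.40. Cyp4b1 and Cycs also have successive numbers and correlated at 0.76 over these arrays. The 8 probes numbered nearest to Krt15 had a mean difference of -1.20 in BXD38. Around Slc22a6 this mean was 0.09, around Cyp4b1 -0.21, around Slc5a2 -0.49, and around the probes of Tmem176a 0.13 and -0.22. The part of a shared place on the array in these pairs was not tested.

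The highest probes fell into 2 kinds. Of the 15 highest, 8 had numbers that are multiples of 8, and 9 stayed above the range with position removed. Zfp157, a zinc finger gene, read 4.39 in BXD38, while the other 30 arrays lay between -0.64 (BXD15) and 1.67 (BXD32), with a median of -0.05. Rif1, which controls the timing of replication and the repair of broken DNA, read 3.55 in BXD38 and -1.13 to 1.52 in the others, but its second probe differed by 0.67 and was inside the range. 1700017M07Rik read 2.95 in BXD38 and -0.83 to 0.27 in the others, the narrowest range among the 15. Syce3, a component of the synaptonemal complex of meiosis, differed by 2.91, the homeobox gene Lhx4 by 2.79, Krtcap2, a subunit of the enzyme that attaches sugars to asparagine, by 2.75, and the splicing factor Ccdc12 by 2.75. Removal of position changed these 7 by at most a small amount, to between 2.74 and 4.28. The 8 at multiples of 8 were 4930556G01Rik (3.44), Ogfrl1 (3.31), 1700083H02Rik (3.14), Pldi (2.93), Rpl23 (2.88), Lrrc39 (2.83), Abcg1 (2.77) and 4930590G02Rik (2.68). Their differences with position removed were between 0.65 and 1.93, and only Lrrc39 and Abcg1 stayed above the range. Rpl23 had a second probe at another kind of place, which differed by 0.01.

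**Figure D5:**
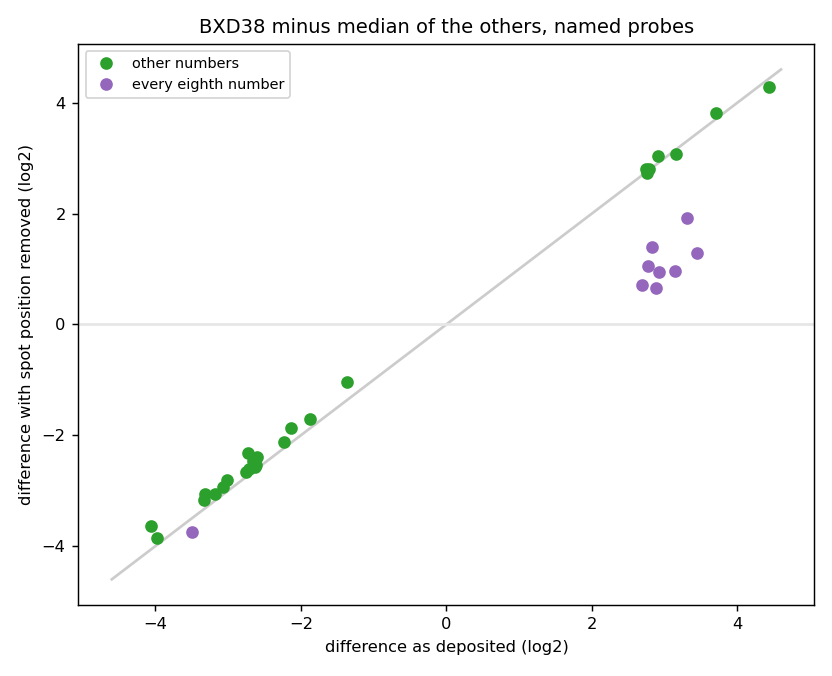
Difference of BXD38 from the median of the other 30 arrays as deposited (horizontal axis, log2) and with spot position removed (vertical axis, log2) for the 15 lowest and 15 highest probes and the probes of the 4 markers. Purple probes, whose numbers are multiples of 8, fell from between 2.68 and 3.44 to between 0.65 and 1.93 on the high side, while green probes lay near the line of equal values.

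The 4 markers were then followed in the other 30 arrays, whose values set the range that BXD38 was read against. It was known from earlier results of these data that proximal tubule genes varied together. The 6 pairs were compared by permutation tests (2-sided, 100000 resamples, Benjamini-Hochberg over the 6 pairs). Cyp4b1 and Tmem176a correlated with Pearson r = 0.719 and Spearman rho = 0.735 (permutation p = 1e-05 for each, the smallest that 100000 resamples can give, adjusted p = 6e-05 and 3e-05). Slc5a2 correlated with Tmem176a at r = 0.693 and rho = 0.647 (permutation p = 4e-05 and 0.00015, adjusted p = 0.00012 and 0.000225) and with Slc22a6 at r = 0.641 and rho = 0.674 (permutation p = 0.00012 and 5e-05, adjusted p = 0.000195 and 0.0001). For Slc22a6 and Tmem176a, r was 0.657 and rho 0.742 (permutation p = 0.00013 and 1e-05, adjusted p = 0.000195 and 3e-05). The loosest pairs were Cyp4b1 with Slc5a2, at r = 0.491 and rho = 0.44 (permutation p = 0.00607 and 0.0157, adjusted p = 0.00728 and 0.0157), and Cyp4b1 with Slc22a6, at r = 0.447 and rho = 0.481 (permutation p = 0.0127 and 0.00774, adjusted p = 0.0127 and 0.00929). Without the 2 arrays farthest from the median of the first gene of each pair, r lay between 0.333 and 0.682. Since this covariation and the markers were known from these same data, the p-values are no independent support.

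Within the 24 arrays of BXD1-32, r for the 6 pairs was 0.375 to 0.757, and Cyp4b1 with Slc22a6 no longer passed by r (permutation p = 0.0714, adjusted p = 0.0714) or by rho (0.341, permutation p = 0.103, adjusted p = 0.103). Cyp4b1 with Slc5a2 passed by r (0.469, permutation p = 0.0218, adjusted p = 0.0262) and not by rho (0.414, permutation p = 0.0449, adjusted p = 0.0539). Without BXD2 and BXD23, Cyp4b1 with Slc22a6 had r = 0.16, so within BXD1-32 it rests on those 2 arrays. Within the 6 other arrays of BXD33-42, r ran from -0.692 to 0.71 and no pair passed by r (exact permutation tests, smallest p = 0.11, adjusted p = 0.364) or by rho (exact permutation tests, smallest p = 0.175, adjusted p = 0.525). With spot position removed, r over the other 30 arrays was 0.397 to 0.701 and all 6 pairs passed by r (permutation p at most 0.03, adjusted p at most 0.03). By rho, Cyp4b1 with Slc5a2 then did not pass (0.306, permutation p = 0.101, adjusted p = 0.101) and the other 5 pairs did. After removal of the first principal component of the other arrays, Cyp4b1 with Tmem176a passed by r (0.622, permutation p = 0.00026, adjusted p = 0.00156) and by rho (0.754, permutation p = 1e-05, adjusted p = 6e-05). Slc22a6 with Slc5a2 passed by rho (0.515, permutation p = 0.00391, adjusted p = 0.0117) and not by r (0.407, permutation p = 0.0257, adjusted p = 0.0515). No other pair passed by either measure, and r for the 5 pairs that did not pass by r was 0.243 to 0.431 (permutation p between 0.0174 and 0.196, adjusted p between 0.0515 and 0.196).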

How the data were processed

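The series holds 31 spotted arrays of 23040 probes, 1 per strain, and BXD38 was compared with the other 30. The authors deposited log ratios, read here as log2. Per the submitters' processing notes, R 2.0.0 and limma were used; steps, log base and direction are not given in the sources used here, and strain over reference is the likely reading from red over green. After sorting, all 31 columns held the same values (median 0.0127, SD 0.602), so the deposited arrays had been quantile normalized. Spot brightness over background was not analysed here, and the number of arrays limits the precision.

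The platform table named 1 gene for 16874 probes, several genes for 134 and no gene for 6032; 16196 matched the RefSeq table of GRCm38.p6 by gene number. Probes of a gene were averaged. For each probe or gene, BXD38 was set against the lowest, median and highest of the other 30, counted as outside when beyond all of them. Spot position was removed by subtracting, in each array, the mean of the 48 probes at the same place in each repeat of 480 probe numbers. The repeat was read from the values, and no layout of the array was used. No test was made of BXD38. Correlations of markers were tested by permutation in Python 3.11.15 with numpy 2.4.6 and scipy 1.17.1 (threshold 0.05). The p-values treat arrays as exchangeable and give how often permuted arrays had a correlation at least as large in size.

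The strain, the markers and the 28 gene lists were chosen with earlier results of these data known. Named genes were the 15 lowest and 15 highest probes with 1 symbol outside the range, all members outside the range in the 3 main lists (proximal tubule, collecting duct, oxidative phosphorylation), up to 6 in other lists, members nearest the edge of the range and every marker probe. Other members are named to complete a role and were chosen after their values were seen. Alternatives were array scaling, position, leaving out BXD15, the 6 arrays of BXD33-42 alone, genes for probes, the first principal component of the other 30 removed, the mean for the median, a filter on spread, the probe of largest spread, and, added after seeing the data, leaving out every eighth probe number.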

Additional observations from a re-analysis of the deposited data

Results flagged for a closer look

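Among the 6 other arrays of BXD33-42, the group against which BXD38 was also set, 111 values of named genes, probes and lists were examined for 1 array far from the rest of the 6, and 9 were found. About 1 in 20 groups shows such an array by chance. BXD33 lay far below the other 5 for Mep1a (-1.58), Col4a3 (-0.98) and the probes of Ogfrl1 (-2.74) and Ccdc12 (-1.26). For Mep1a, BXD33 set the low edge of the range that BXD38 passed by the smallest distance among the proximal tubule genes. BXD34 lay far above the others for Cycs (1.58) and for the probe of Snupn (1.27). BXD42 lay far above for Dnajb1 (0.63) and far below for the probe of Ccdc17 (-1.85). BXD36 lay far below for Plk1 (-0.15).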

How the results depend on the processing

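The probe counts stayed within 1.5 times and the medians of 6 lists (proximal tubule, collecting duct, oxidative phosphorylation, mitochondrial ribosome, fatty acid oxidation and androgen-regulated genes) kept their sign without BXD15, with the mean of the other arrays and with the filter on spread. Array scaling could change nothing, since all arrays already held the same set of values. With position removed, probes at least 1 higher fell to 511. Against the 6 other arrays of BXD33-42, 4287 probes were below and 4041 above the range; fewer arrays give a narrower range. With genes in place of probes, of which there are fewer, 1065 were above the range, 750 at least 1 lower and 599 at least 1 higher. Without every eighth probe number, 889 were above the range and 418 at least 1 higher. The median of the collecting duct list turned to -0.0387 with the first principal component removed. With that component removed, 5 marker pairs no longer passed by r: Cyp4b1 with Slc22a6 (r = 0.247, permutation p = 0.188, adjusted p = 0.196) and Slc5a2 (r = 0.243, permutation p = 0.196, adjusted p = 0.196), Slc22a6 with Slc5a2 (r = 0.407, permutation p = 0.0257, adjusted p = 0.0515, though rho = 0.515 passed, permutation p = 0.00391, adjusted p = 0.0117) and Tmem176a (r = 0.431, permutation p = 0.0174, adjusted p = 0.0515), and Slc5a2 with Tmem176a (r = 0.341, permutation p = 0.0657, adjusted p = 0.0985). The cause was not tested. No difference of a named gene or probe turned its sign under these alternatives, and the largest number that moved by more than the spread of the other arrays was 20 of 105, with position removed. No array could be left out of the BXD38 side, which had 1. No paired analysis was possible because each strain had 1 array and no replicate number.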

Other observations

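In lists of general cell functions, counts of genes outside the range of the other 30 arrays are read beside the 7.98% of all genes below it and 7.05% above it. Of 31 proteasome genes 2 were below and 4 above, with a median difference of -0.15, and Psmd11 (0.77 above) and Psmd2 (-0.72 below) held with position removed. Of 31 genes of mitochondrial import and carriers 3 were below and 2 above, with a median of -0.16. The low ones were Phb and Phb2, which encode the 2 prohibitin subunits of the inner membrane, at -1.09 and -0.89, and the import receptor Tomm70a at -0.79, although its second probe was inside the range. With position removed Phb2 and Tomm70a stayed below the range and Phb did not. Of 14 glycolysis genes only Hk1 was outside, at 0.83, from 1 of its 4 probes. Of 17 cell cycle genes only Plk1 was outside, at -0.72, and the list median of -0.21 became 0.04 with position removed.

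Of 11 heat shock genes Dnajb1 was below (-0.65) and Cryab above (1.28), and with position removed only Cryab stayed outside. Of 16 immediate early genes only Fos was outside, at -0.86, and of 15 interferon response genes only Ifi204, at 2.42. Against the 6 other arrays of BXD33-42 alone, Ifi204 differed by 1.47. Ifi204 sits at a probe number that is a multiple of 8 and was inside the range with position removed. Among immune cells, 1 of 15 macrophage genes was below (Lyz1, -1.16) and 1 above (C1qa, 0.93), and of 14 lymphocyte genes 2 were below (Cd79a, -1.02, and Cd8a, -0.28) and 1 above (Jchain, 0.42). Both probes of Cd8a were inside the range and only their mean was below it, and Cd79a and Lyz1 were inside it with position removed. Of 15 genes of stroma and smooth muscle Pdgfra was below (-0.98, from 1 of its 2 probes), and of 11 fat cell genes Cidea (-0.83) and Ucp1 (-0.75). With position removed Cidea, at -0.48, was still below the range and Ucp1 was not.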
